A study of Rattus norvegicus with 8 samples.

Results

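The 9 genes described here, of the cytosolic and mitochondrial heat shock response, were followed through hypobaric hypoxia in rat hippocampus. They were chosen by name, as every non-control probe whose gene name on the array was Hsp90aa1, Hspa8, Hspa4, Hspb1, Hsph1, Dnajb1, Hspd1, Hspe1 or Hsf1. All 9 genes, with 15 probes between them, passed the filter on dim probes, out of 21296 genes and 24678 probes that did so. Hippocampal RNA of male Sprague Dawley rats went onto 8 single-colour Agilent arrays, with 2 in each group. The groups were normoxia (room air) and rats kept in a decompression chamber at a simulated altitude of 25000 ft and 8% oxygen, titled day 1, day 3 and day 7. The exposure field of the last group gives 5 days in place of 7, and the group is called day 7 here. Whether replicate arrays hold RNA of different animals is not stated, and the p-values therefore describe array-to-array spread that may be technical.

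Heat shock proteins are chaperones: they bind unfolded or partly folded proteins, help them to fold, keep them soluble or pass them on for breakdown. In the cytosol, HSP70 proteins work in cycles of ATP hydrolysis with J-domain partners and nucleotide exchange factors and hand clients on to HSP90, while small heat shock proteins hold clients without ATP. In mitochondria, HSP60 forms a barrel that HSP10 caps. Heat shock factor 1 is the transcription factor that switches on many of these genes under proteotoxic stress, by binding repeats of the heat shock element in their promoters.

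A level below is the log2 processed signal of a probe after subtraction of the 75th percentile of its array, so 0 is the signal at that percentile and a higher value is a brighter probe relative to it. The percentile itself was 2684 and 2321 (normoxia), 2214 and 2247 (day 1), 1710 and 1566 (day 3) and 1407 and 1393 (day 7). Rises and falls below are relative to it. Before scaling, the brightest Hspa8 probe read 233224 and 216408 in normoxia and 176265 and 172028 on day 7, yet its level rose. Where a gene has several probes its level is that of the brightest probe. Levels serve to compare arrays for 1 probe and not to compare probes, which bind with different strength. Genes were tested with limma across all genes, and a gene was called at a Benjamini-Hochberg adjusted p under 0.05. The median difference between replicate arrays was 0.061 (day 1) to 0.095 (day 7) log2, and no spot of the 15 probes was saturated or below the background threshold on any array. Changes were widespread on these arrays, so the counts of called genes are read against the share of all genes called. In bulk tissue, fewer cells of a type and less RNA per cell cannot be told apart.

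Of the 9 genes, 7 differed among the 4 groups by limma's F-test, where 72.1% of all genes were called. Dnajb1 (adjusted p = 0.0605) and Hspd1 (adjusted p = 0.423) were not called. On day 1, 2 of the 9 rose and 2 fell against normoxia, beside 35.5% of all genes called, 15.3% higher and 20.2% lower. On day 3, 2 rose and 3 fell, beside 50.3% of all genes, 24.2% higher and 26.2% lower. On day 7, 5 rose and 2 fell, beside 61.3% of all genes, 31.5% higher and 29.7% lower. This day 7 split turned with the scaling: 1 higher and 4 lower under quantile normalization and under cyclic loess, and 7 higher and 1 lower under median centring. The number of genes called thus lay near the background in each comparison, and the genes did not share a direction. The median change of the 9 was -0.03, -0.11 and 0.21 log2 on days 1, 3 and 7, beside -0.07, -0.05 and -0.03 over all genes. The day 7 median was -0.08 under quantile normalization, -0.14 under cyclic loess and 0.50 under median centring, beside 0.05, 0.01 and 0.26 over all genes.

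**Figure D1:**
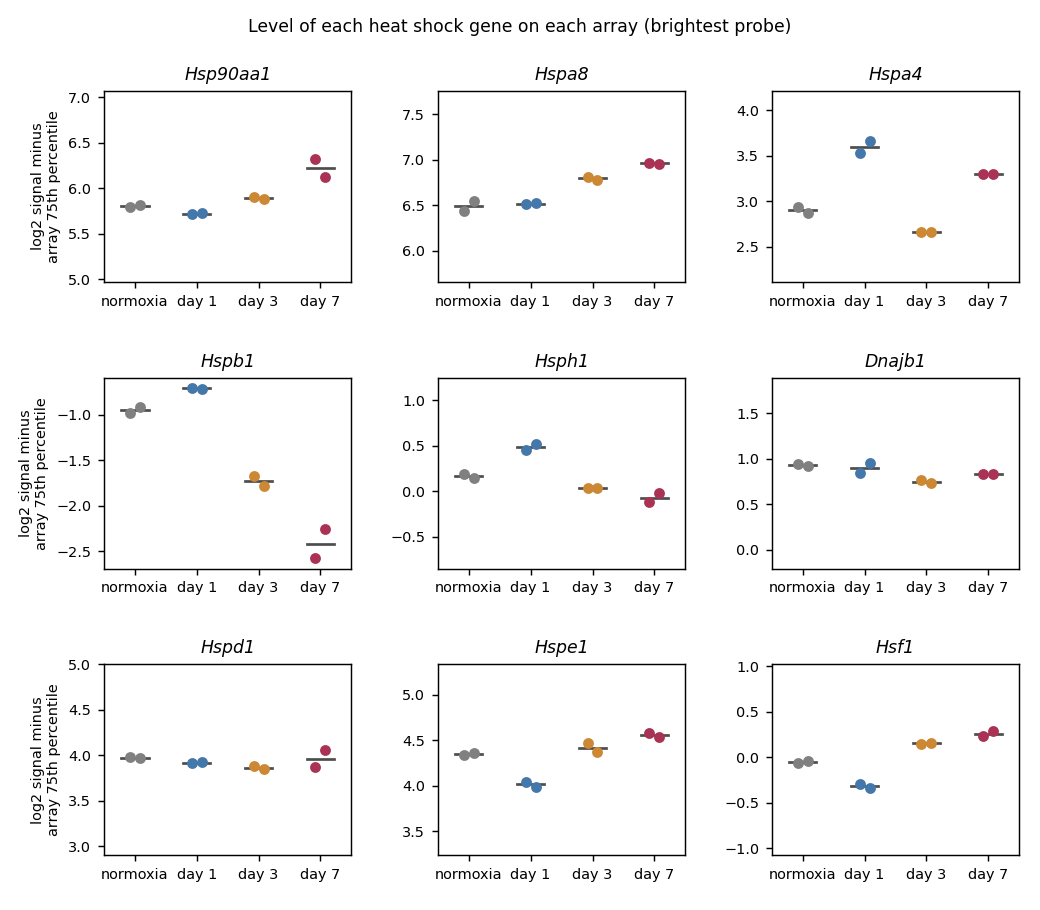
Level of each of the 9 genes on each array (log2 signal of the brightest probe relative to the 75th percentile of that array); points are arrays, bars are means of 2 arrays, and each panel spans the same 2.1 log2 units. Hspa4 was highest on day 1 and lowest on day 3, and Hspb1 was lowest on day 7.

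The regulator comes first. Hsf1, which encodes heat shock factor 1, had levels of -0.06 and -0.04 (normoxia), -0.29 and -0.34 (day 1), 0.14 and 0.16 (day 3) and 0.23 and 0.28 (day 7). The arrays of no 2 groups overlapped. Against normoxia, Hsf1 fell by 0.27 log2 on day 1 (SE 0.04, n = 2 arrays each, limma adjusted p = 0.00571). It was higher by 0.20 on day 3 (SE 0.04, limma adjusted p = 0.00941) and by 0.31 on day 7 (SE 0.04, limma adjusted p = 0.00139), a 1.24-fold difference. The change between days 1 and 3 was itself called (0.47, SE 0.04, limma adjusted p = 5.95e-04), and that between days 3 and 7 was not (0.11, limma adjusted p = 0.0757). Hsf1 has 1 probe, at chr7:114550596-114550655 of rn4 on the plus strand.

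Hspa4 encodes an HSP110-type protein that acts as a nucleotide exchange factor for HSP70. Its levels were 2.94 and 2.87 (normoxia), 3.53 and 3.66 (day 1), 2.66 and 2.66 (day 3) and 3.30 and 3.30 (day 7). It was high on day 1, low on day 3 and high again on day 7, with no overlap between any of the groups. Against normoxia it rose by 0.69 log2 on day 1, or 1.62-fold (SE 0.05, limma adjusted p = 9.32e-04), and by 0.40 on day 7 (SE 0.05, limma adjusted p = 0.0019). On day 3 it fell by 0.24 (SE 0.05, limma adjusted p = 0.0161). Both steps between exposed groups were larger than the spread between arrays: a fall by 0.94 between days 1 and 3 and a rise of 0.64 between days 3 and 7 (SE 0.05 each, limma adjusted p = 2.45e-04 and 0.00122). The day 1 rise and both of these steps were called under every alternative setting. Hspa4 has 1 probe, so the settings that change the probe could not move these values. The day 7 rise over normoxia was 0.15 under quantile normalization and 0.14 under cyclic loess, with limma adjusted p of 0.0708 and 0.0871. The day 3 fall was not called under median centring, with a change of -0.09. It was also not called without normoxia replicate 1 or without either day 3 array (limma adjusted p = 0.0764, 0.0618 and 0.0643).

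Hsph1, which encodes the related exchange factor HSP105, had levels of 0.19 and 0.14 (normoxia), 0.45 and 0.52 (day 1), 0.04 and 0.04 (day 3) and -0.12 and -0.02 (day 7). Only the day 1 arrays lay above both normoxia arrays. The day 1 rise was 0.32 log2, or 1.25-fold (SE 0.05, limma adjusted p = 0.00834), and without day 1 replicate 2 it was 0.28 and missed the threshold (limma adjusted p = 0.0526). The fall by 0.45 between days 1 and 3 was called under every setting (SE 0.05, limma adjusted p = 0.00163), though with 1 probe the choice of probe could not vary. On day 7 Hsph1 was lower than in normoxia by 0.24 (SE 0.05, limma adjusted p = 0.011). Under median centring it was 0.06 higher and not called, and without normoxia replicate 1 its limma adjusted p was 0.0562.

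Dnajb1 encodes an HSP40, a J-domain protein that delivers clients to HSP70 and stimulates its ATPase. Levels were 0.94 and 0.92 (normoxia), 0.84 and 0.95 (day 1), 0.77 and 0.73 (day 3) and 0.83 and 0.83 (day 7). The 8 arrays covered little range, and the day 1 arrays lay around those of normoxia. A fall by 0.18 log2 on day 3 (SE 0.05, limma adjusted p = 0.0279) was called, but not without any 1 of the normoxia or day 3 arrays (limma adjusted p = 0.0664 to 0.115) or with the replicate number as a block (0.0504). It was at -0.0329 under median centring and -0.11 under normexp, neither called (limma adjusted p = 0.602 and 0.188). The differences on day 1 (-0.03) and day 7 (-0.10, SE 0.05) were not called. Between days 1 and 3 Dnajb1 fell by 0.15 (SE 0.05, limma adjusted p = 0.049), a call that was lost in 16 of 22 alternatives.

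Hspb1 encodes the small heat shock protein HSP27 (HSP25 in rodents), known as a stress-induced protein of glia and vessels in brain. The array carries 1 spot for it, whose probe spans an intron at chr12:21911494-21911664 of rn4 on the minus strand. The sequence is shown because Hspb1 had the largest gene-level change of the 9, read from this probe alone.
Hspb1 probe: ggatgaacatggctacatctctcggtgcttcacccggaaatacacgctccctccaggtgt
Its levels were -0.98 and -0.91 (normoxia), -0.70 and -0.72 (day 1), -1.67 and -1.78 (day 3) and -2.58 and -2.25 (day 7). Day 1 lay above normoxia, and days 3 and 7 lay below it by steps wider than the gap between any pair of replicate arrays. Against normoxia Hspb1 fell by 0.78 log2 on day 3 (SE 0.11, limma adjusted p = 0.00365), and on day 7 it fell by 1.47, a 2.77-fold difference (SE 0.11, limma adjusted p = 2.64e-04). The day 1 difference of 0.24 was not called (SE 0.11, limma adjusted p = 0.17). That difference was called in the fit to the compared groups alone (SE 0.05, limma adjusted p = 0.0367), so its call depended on the arrays in the model. The day 7 value ranged between -1.63 and -1.17 over the alternatives and was called in all of them.

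Hspd1 and Hspe1, the mitochondrial pair, lie head to head in the genome. Hspd1 (HSP60) had levels of 3.99 and 3.97 (normoxia), 3.92 and 3.92 (day 1), 3.88 and 3.85 (day 3) and 3.87 and 4.06 (day 7). The day 7 arrays lay on either side of normoxia. None of its differences from normoxia was called: -0.06, -0.11 and -0.01 log2 on days 1, 3 and 7 (SE 0.06, limma adjusted p = 0.526, 0.208 and 0.874). Other scalings gave calls in both directions. On days 3 and 7 Hspd1 was at -0.25 and -0.27 under quantile normalization (limma adjusted p = 0.0317 and 0.0206) and at -0.28 and -0.33 under cyclic loess (0.0199 and 0.00862), and on day 7 it was at 0.28 under median centring (0.0177). Hspe1 (HSP10) had levels of 4.33 and 4.36 (normoxia), 4.04 and 3.99 (day 1), 4.46 and 4.37 (day 3) and 4.58 and 4.53 (day 7). It fell by 0.33 on day 1 (SE 0.05, limma adjusted p = 0.00592) and was 0.40 higher on day 3 than on day 1 (SE 0.05, limma adjusted p = 0.0019). Both calls held under every alternative. On day 7 it rose by 0.21 (SE 0.05, limma adjusted p = 0.0141). It was at -0.0844 under quantile normalization and -0.14 under cyclic loess, neither called (limma adjusted p = 0.184 and 0.0503). Under normexp the day 7 rise was 0.17 and not called (limma adjusted p = 0.0532). It was 0.18 without day 7 replicate 1 and 0.19 without normoxia replicate 1. A difference between the genes was not itself tested.

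**Figure D2:**
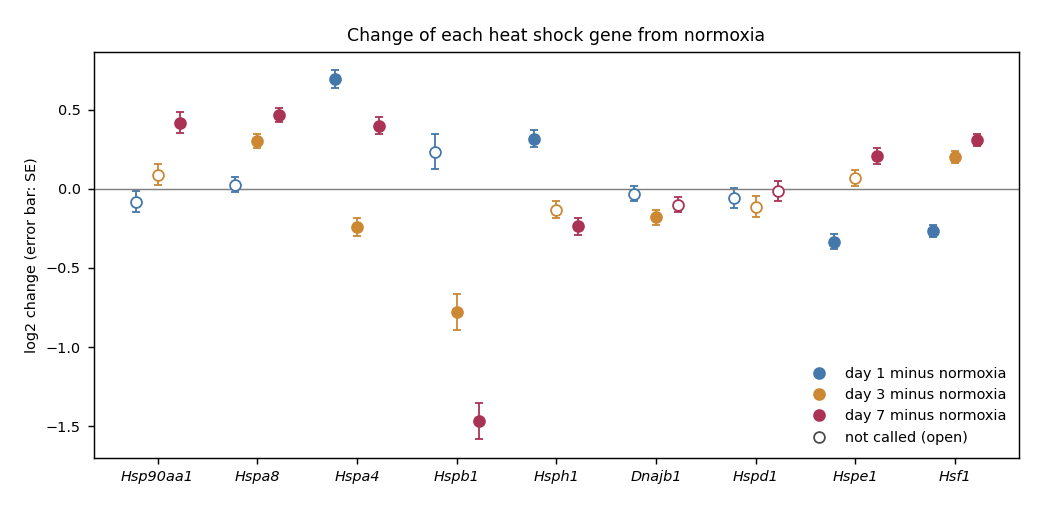
Change of each gene from normoxia on days 1, 3 and 7 (log2, brightest probe, error bars are the limma SE, n = 2 arrays per group); filled points were called at an adjusted p under 0.05 and open points were not. The largest rise is that of Hspa4 on day 1 (0.69) and the largest fall that of Hspb1 on day 7 (-1.47).

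The 2 major cytosolic chaperones, Hspa8 (HSC70, the constitutive HSP70) and Hsp90aa1 (the inducible HSP90), gave answers that depended on the probe. Hspa8 has 4 probes, all on chromosome 8 of rn4, plus strand, and their sequences are shown because the upstream and the downstream pair changed in opposite directions. Capitals mark the 20 bases that the first pair share, and the listing runs from upstream to downstream.
A_64_P014723 (chr8:43785314-43785489): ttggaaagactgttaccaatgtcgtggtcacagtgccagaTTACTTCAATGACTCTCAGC
A_64_P096381 (chr8:43785470-43785529): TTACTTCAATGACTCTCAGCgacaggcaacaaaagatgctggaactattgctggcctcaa
A_64_P061286 (chr8:43787204-43787517): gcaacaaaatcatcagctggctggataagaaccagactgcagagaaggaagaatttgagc
A_64_P023392 (chr8:43787518-43787576): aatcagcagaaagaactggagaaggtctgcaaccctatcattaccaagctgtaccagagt
All 4 are 60 bases long and have the same share of G and C. The first and the third span 176 and 314 genomic bases, so each crosses an intron.

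The most downstream Hspa8 probe, A_64_P023392, is the brightest and stands for the gene. Its levels were 6.44 and 6.54 (normoxia), 6.51 and 6.52 (day 1), 6.82 and 6.78 (day 3) and 6.97 and 6.95 (day 7). Days 3 and 7 lay above the other arrays, with rises over normoxia of 0.30 and 0.47 log2 (SE 0.05 each, limma adjusted p = 0.00413 and 5.88e-04). Under quantile normalization and cyclic loess the day 3 value was 0.0156 and 0.0243, neither called (limma adjusted p = 0.799 and 0.597). The probe next to it, A_64_P061286, changed by 0.14 on day 3 (not called) and by 0.27 on day 7 (SE 0.07, limma adjusted p over probes = 0.0169).

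At the upstream pair, whose centres lie 2048 and 2146 genomic bases before the last probe, the direction was the opposite. Probe A_64_P096381 had levels of 2.94 and 3.02 (normoxia), 3.06 and 3.03 (day 1), 1.68 and 1.64 (day 3) and 0.91 and 0.94 (day 7). Probe A_64_P014723 had 1.90 and 1.96 (normoxia), 1.94 and 2.03 (day 1), 0.66 and 0.74 (day 3) and -0.02 and 0.08 (day 7). Normoxia and day 1 were level on both, day 3 was far lower, and day 7 lower again. The changes from normoxia were -1.32 and -1.23 log2 on day 3 and -2.06 and -1.90 on day 7, the largest a 4.16-fold difference (SE 0.04 and 0.06, limma adjusted p over probes at most 1.93e-04). On day 1 none of the 4 probes was called, with changes between -0.09 and 0.07. In the fit over probes 34.2%, 49.9% and 61% of all probes were called on days 1, 3 and 7.

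Hsp90aa1 has 3 probes on chromosome 6 of rn4, minus strand. The brightest, A_64_P119852 at chr6:135413693-135413752, had levels of 5.79 and 5.81 (normoxia), 5.72 and 5.72 (day 1), 5.91 and 5.88 (day 3) and 6.32 and 6.13 (day 7). Its rise of 0.42 log2 on day 7, or 1.34-fold (SE 0.07, limma adjusted p = 0.00336), was the only call of this probe against normoxia. The upstream probe A_44_P299870, at chr6:135415397-135415456, had 5.07 and 5.02 (normoxia), 4.67 and 4.64 (day 1), 4.58 and 4.60 (day 3) and 3.72 and 3.86 (day 7). It fell by 0.39, 0.46 and 1.25 on days 1, 3 and 7 (SE 0.06 each, limma adjusted p over probes = 0.00608, 0.00214 and 6.59e-05). The third probe, A_64_P023633, is the most downstream, and only 14 genomic bases are annotated for it. It changed by -0.37 on day 1 (SE 0.08, limma adjusted p over probes = 0.02), and its changes of -0.22 and -0.13 on days 3 and 7 were not called.

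Hspe1 has an upstream and a downstream probe on chromosome 9 of rn4, plus strand. Both fell on day 1, by 0.21 upstream and by 0.33 downstream. On day 7 they disagreed. The downstream probe, which stands for the gene, gave the rise of 0.21, and the upstream probe A_64_P029918 fell by 0.21 (SE 0.04, limma adjusted p over probes = 0.00445). The other 6 genes have 1 probe each, so the same comparison could not be made for them.

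**Figure D3:**
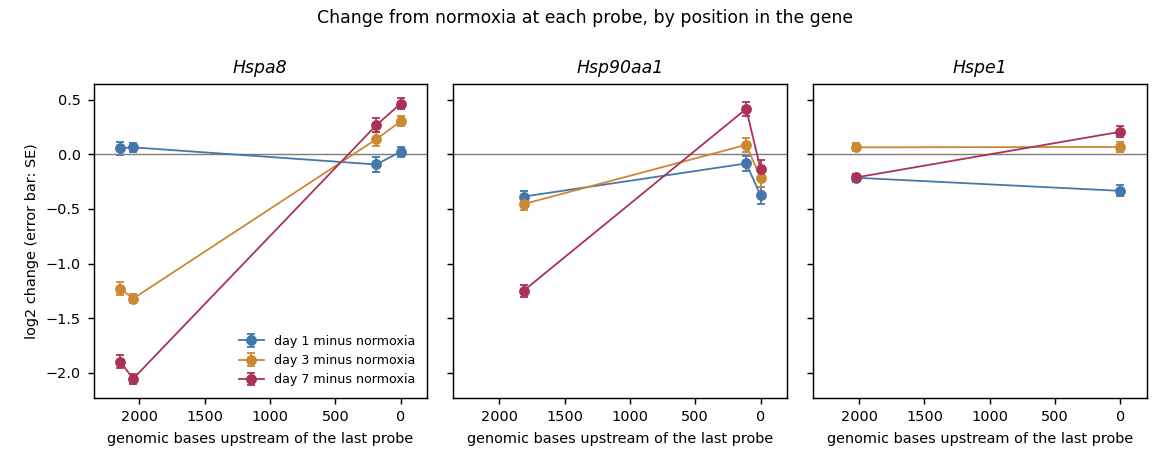
Change from normoxia at each probe of Hspa8, Hsp90aa1 and Hspe1 (log2, error bars are the limma SE) against the genomic distance upstream of the gene's last probe, with the transcript running left to right. For Hspa8 the upstream pair changed by -1.90 and -2.06 on day 7 while the last probe rose by 0.47, and on day 1 all 4 probes lay near 0.

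The same measurement was made in every gene with 2 or more kept probes at least 60 bases apart, 2772 in all, as the change at the most upstream probe minus that at the most downstream probe. The median was 0.01 log2 on day 1, -0.25 on day 3 and -0.44 on day 7, and the upstream probe was the lower in 48.5%, 72.3% and 76.4% of genes. Both replicate arrays showed it alike: relative to the mean of normoxia, the median per array was 0.01 and 0.02 (day 1), -0.25 and -0.24 (day 3) and -0.44 and -0.46 (day 7). Hspa8 lay far out in this distribution, with differences of -1.54 on day 3 and -2.37 on day 7, and only 2.53% and 1.19% of genes had a lower one. Hsp90aa1, at -1.12 on day 7, had 20.4% of genes below it, and Hspe1, at -0.42, had 51.0%. These shares are over all probe spacings, and the shift differed with spacing. The day 7 median was -0.19 in the 463 genes with the closest probes and -0.31 in the 74 with the farthest. The probe pairs of the 3 named genes lie 1814 to 2146 bases apart. In the spacing bin that holds them, of 843 genes, the day 7 median was -0.59 and the lower quartile -1.16. Against that bin Hspe1 was less shifted than the median, Hsp90aa1 lay just above the lower quartile and Hspa8 below it. Day 3 and day 7 arrays lay in row 2 of the slide and normoxia and day 1 arrays in row 1, so slide row and exposure of 3 days or more cannot be told apart here. On day 3 and day 7 arrays 72.6% to 77.0% of spots were well above background, against 80.6% to 85.6% on the others. The part of RNA quality in the probe differences was not tested.

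**Figure D4:**
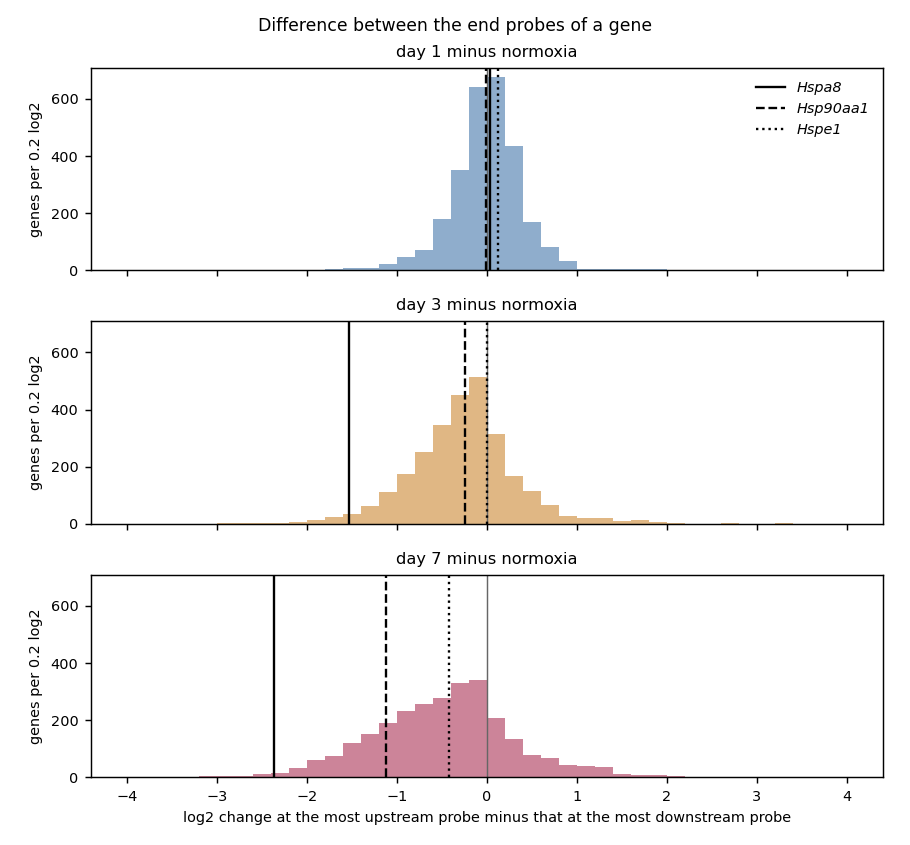
Number of genes (of 2772) by the log2 change from normoxia at the most upstream probe minus that at the most downstream probe, in bins of 0.2 (the outermost also hold genes beyond the axis), on days 1, 3 and 7; lines mark Hspa8, Hsp90aa1 and Hspe1. The distribution is centred near 0 on day 1 and shifted to a median of -0.44 on day 7, where Hspa8 lies at -2.37.

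The median change of genes also rose with signal level, more so on days 3 and 7 than on day 1. Genes were split by mean level into 10 bins of equal size. The brightest bin holds Hsp90aa1, Hspa8, Hspa4, Hspd1 and Hspe1. Its median change was 0.18 log2 on day 3 and 0.36 on day 7, while in the dimmest bin it was -0.63 and -0.65. On day 1 the median was -0.01 in the brightest bin and -0.40 in the dimmest. Set against the median of their own bin on day 7, Hspa8 was 0.10, Hsp90aa1 0.05, Hspa4 0.04, Hspe1 -0.16 and Hspd1 -0.38 log2 away. Hsf1 and Hsph1 lie in bin 7 counted from the dimmest, where the median on day 7 was 0.03. Hspb1 lies in bin 6, where it was -0.06, and Dnajb1 in bin 8, where it was 0.17. Dnajb1 was -0.27 log2 away from the median of its bin. Quantile normalization brought the day 7 change of Hspa8 to 0.01 and that of Hsp90aa1 to -0.07, neither of which was called.

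Of the 27 calls that the 9 genes had in the 5 comparisons, 13 kept their direction and their call under every alternative. These were Hsf1 on all 3 days and between days 1 and 3, Hspa4 on day 1 and in both steps between exposed groups, Hspb1 on days 3 and 7 and between days 1 and 3, Hspe1 on day 1 and between days 1 and 3, and Hsph1 between days 1 and 3. Of these genes all but Hspe1 have 1 probe, so the settings that change the probe could not move their values. Those settings turned the sign of Hspa8 and Hsp90aa1, and that of Hspe1 on day 7 and between days 3 and 7. Between consecutive exposed groups, 7 of the 9 were called between days 1 and 3 (3 higher and 4 lower, beside 51.2% of all genes, 28.2% higher and 23% lower) and 4 between days 3 and 7 (3 higher and 1 lower, beside 42.4%, 24.2% higher and 18.3% lower). The 7 include Dnajb1, whose call was lost in 16 of 22 alternatives.

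RefSeq promoters (GRCr8, 250 bases before to 50 after the transcript start) were matched for 7 of the 9 genes, all but Hsp90aa1 and Hsf1, and searched for the core of the heat shock element. GAANNTTC, which reads the same on both strands, was present in 6 of the 7, the exception being Hspa4, and in 8.59% of all 33469 promoters. A longer form, GAANNTTC followed after 2 further bases by GAA, searched on both strands, was present in Hspa8, Hsph1, Hspd1 and Hspe1 and in 0.798% of all promoters. The Hspd1 and Hspe1 windows overlap, because these genes lie head to head, and hold the same match. The 250 bases before the transcript start are shown for Hspa8, which holds the longer form, and for Hspb1, which holds the shorter form alone. On day 7 Hspb1 was at -1.47 log2, and Hspa8 at 0.47 by its last probe but -0.81 by the mean of its probes. Capitals mark each GAANNTTC match together with the further bases of the longer form where it is present. The GAANNTTC matches themselves start 213 and 50 bases before the Hspa8 start and 129 and 109 bases before the Hspb1 start.
Hspa8 (chr8:50080264-50080513, plus strand): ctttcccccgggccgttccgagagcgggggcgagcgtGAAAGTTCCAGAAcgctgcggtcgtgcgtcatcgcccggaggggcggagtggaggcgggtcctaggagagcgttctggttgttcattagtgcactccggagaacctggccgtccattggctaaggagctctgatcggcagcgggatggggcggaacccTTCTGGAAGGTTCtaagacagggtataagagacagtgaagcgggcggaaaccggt
Hspb1 (chr12:26432302-26432551, minus strand): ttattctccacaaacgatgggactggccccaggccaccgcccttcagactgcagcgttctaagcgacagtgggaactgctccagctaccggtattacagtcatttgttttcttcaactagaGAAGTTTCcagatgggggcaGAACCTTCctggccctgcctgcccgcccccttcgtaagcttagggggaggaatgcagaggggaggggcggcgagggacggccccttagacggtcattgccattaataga
A match describes these letters only, and binding was not measured.

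The rest of the cytosolic network was taken from lists of gene names. The counts below are to be read against all genes, of which 15.3% were higher and 20.2% lower (day 1), 24.2% and 26.2% (day 3) and 31.5% and 29.7% (day 7). Of 32 other HSP70, HSP40, small heat shock and BAG-domain genes, 12 rose and 8 fell on day 1, 8 rose and 14 fell on day 3, and 10 rose and 12 fell on day 7. These are 37.5% higher and 25% lower (day 1), 25% and 43.8% (day 3) and 31.3% and 37.5% (day 7), and under median centring 17 were higher and 7 lower on day 7. Hspa1b, the classical stress-inducible HSP70, rose by 0.72 log2 on day 1 (SE 0.04, limma adjusted p = 3.48e-04). Its probe may also bind the near-identical Hspa1a, so this value is uncertain as to gene. Hspa12b, an HSP70 relative known from endothelial cells, rose by 0.85, 0.98 and 0.59 on days 1, 3 and 7. Read at its most upstream probe it was at -0.34 on day 7. Of 15 endothelial markers 8 were higher and 3 lower (day 1), 7 and 4 (day 3) and 8 and 5 (day 7). Their summed signal, relative to the 75th percentile of each array, was 23.3 and 24.2 (normoxia), 38.8 and 38.6 (day 1), 40.5 and 42.5 (day 3) and 41.5 and 42.4 (day 7). The part of endothelial content in the Hspa12b values was not tested. Bag5, an exchange factor of the BAG family, rose by 0.33, 0.68 and 0.93, and Hspbp1, an HSP70-binding exchange factor, fell by 0.28, 0.77 and 0.85. The J-domain gene Dnajb2 rose by 0.34 on day 1 and fell by 0.48 on day 7 (limma adjusted p at most 0.00358 for all values of these 4 genes that are given).

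HSP90 and its co-chaperones gave 2 rises and 5 falls of 16 (day 1), 2 and 6 (day 3) and 7 and 6 (day 7). In all 43.8%, 50% and 81.2% were called, beside 35.5%, 50.3% and 61.3% of all genes. On day 7 the split was 5 higher and 10 lower under quantile normalization and under cyclic loess. Fkbp5, a co-chaperone of steroid receptors that glucocorticoids induce, rose by 0.30 on day 1 and by 0.80 log2 on day 7 (SE 0.05, limma adjusted p = 0.0099 and 1.56e-04). Fkbp4, its counterpart in the same receptor complexes, fell by 0.53 on day 3 and by 0.69 on day 7 (SE 0.04, limma adjusted p = 5.92e-04 and 1.44e-04). The phosphatase co-chaperone Ppp5c fell by 1.01 and 1.28, and Sgta by 0.63 and 0.98, on the same days. Stip1 (HOP), which links HSP70 to HSP90, fell by 0.24 on day 1 and by 0.57 on day 3, and the day 1 call was lost under median centring (limma adjusted p = 0.0561).

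Among 6 other heat shock factor and regulator genes, 1 fell on day 1 and the other 5 were not called, 2 rose and 2 fell on day 3, and 2 rose and 3 fell on day 7. In all 16.7%, 66.7% and 83.3% were called, beside 35.5%, 50.3% and 61.3% of all genes. Hsf2, the second heat shock factor, rose by 0.65 log2 on day 3 and by 0.71 on day 7 (SE 0.03, limma adjusted p = 2.15e-04 and 7.24e-05). Its direction turned with the probe, as for Hspa8: the most upstream probe gave -0.39 on day 3 and -0.84 on day 7 (limma adjusted p = 0.00355 and 1.86e-04). Hsbp1, a small protein that binds HSF1 trimers, fell by 0.49 and 0.53, and the kinase gene Gsk3b by 0.61 and 0.55. The acetyltransferase gene Ep300 rose by 0.41 and 0.75. Hsf4 fell by 0.37 on day 1, a call lost under cyclic loess (-0.24, limma adjusted p = 0.112).

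Mitochondrial chaperones and proteases other than Hspd1 and Hspe1 gave 2 rises and 3 falls of 17 (day 1), 2 and 5 (day 3) and 5 and 8 (day 7). In all 29.4%, 41.2% and 76.5% were called, beside 35.5%, 50.3% and 61.3% of all genes. Under median centring 9 were higher and 4 lower on day 7. Spg7, a subunit of an inner-membrane protease, fell by 1.06 log2 on day 3 and by 1.36 on day 7 (SE 0.05, limma adjusted p = 1.44e-04 and 4.08e-05). Hscb, a co-chaperone of iron-sulfur cluster assembly, rose by 0.51 and 0.81. The J-domain gene Dnaja3 fell by 0.45 and 0.67. Phb, which encodes prohibitin, fell by 0.53 on days 1 and 3.

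The cytosolic chaperonin CCT and prefoldin, which fold actin and tubulin, gave 1 rise and 4 falls of 12 (day 1), 6 and 3 (day 3) and 7 and 4 (day 7). In all 41.7%, 75% and 91.7% were called, beside 35.5%, 50.3% and 61.3% of all genes. Under quantile normalization and cyclic loess 5 were higher and 5 lower on day 7. Pfdn1 rose by 0.33 log2 on day 3 and by 0.82 on day 7 (SE 0.03, limma adjusted p = 0.00108 and 5.35e-05), and Cct6a by 0.39 and 0.62. At its most upstream probe Cct6a was at -0.19 on day 7 and not called (limma adjusted p = 0.0508). Tcp1 rose by 0.78 on day 7, and its fall by 0.19 on day 1 was not called under median centring (limma adjusted p = 0.0533).

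Endoplasmic reticulum chaperones, which belong to the unfolded protein response and not to the heat shock response, gave 9 rises and 2 falls of 16 (day 1), 6 and 4 (day 3) and 4 and 8 (day 7). These are 56.3% higher and 12.5% lower (day 1), 37.5% and 25% (day 3) and 25% and 50% (day 7). The day 7 split was 8 higher and 3 lower under median centring. Pdia4, a disulfide isomerase, rose by 1.20 log2 on day 1 (SE 0.04, limma adjusted p = 8.25e-05) and by 0.45 on day 3. Hsp90b1 (GRP94) rose by 0.60 and Hspa5 (BiP) by 0.23 on day 1. Hyou1, a hypoxia-induced chaperone, rose by 0.69 on day 3 and by 1.04 on day 7 (SE 0.04, limma adjusted p = 2.24e-04 and 4.43e-05). Pdia3 rose by 0.31 on day 1 and was 2.15-fold lower on day 7.

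**Figure D5:**
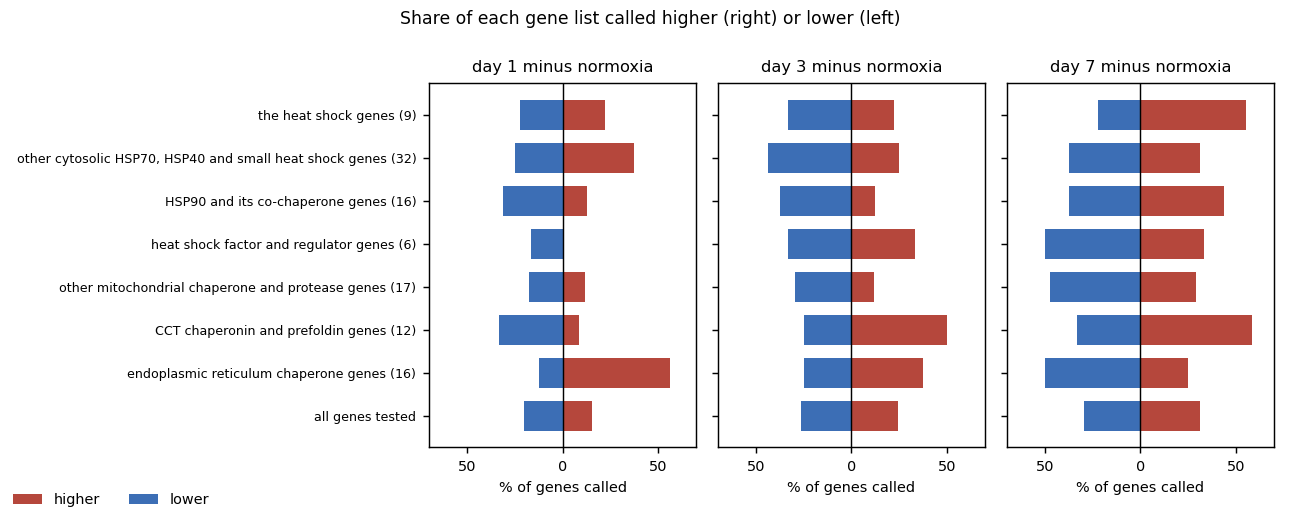
Share of the tested genes of each list (number in brackets) called higher (right, red) or lower (left, blue) than normoxia on days 1, 3 and 7, with all 21296 genes at the bottom. Of the endoplasmic reticulum chaperones 56.3% were higher on day 1, beside 15.3% of all genes, and of the 9 heat shock genes 55.6% were higher on day 7, beside 31.5% of all genes. With quantile normalization, not drawn, 11.1% of the 9 and 31.5% of all genes were higher on day 7.

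The patterns of the 7 genes called by the F-test were set beside 14105 genes with a symbol, by Pearson's r over the 8 arrays as a measure of likeness. Among the nearest were Fam101b and Ppil2 for Hsf1 (r at least 0.995), and the nearest 3 were Skap2, Prkar2b and Hopx for Hspa4 (0.987 to 0.989), and Sv2a, Supt5h and Yeats2 for Hspb1 (0.995 to 0.998). Sri, Ltbp1 and Pde1b were nearest to Hsph1 (0.989 to 0.993), and Mau2, Atp5h and Clptm1 to Hspe1 (0.993 to 0.994). For Hspa8 they were Ggnbp2, Wdr1 and Zfp637 (0.997 to 0.998), and for Hsp90aa1 Clta, Eif4g2 and Mettl25 (0.991 to 0.995). The arrays fall into 4 groups, so high values are common: 925 genes had an r above 0.95 with Hspa8 and 779 with Hspb1, against 42 with Hspa4.

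Markers of other tissues moved with the groups. All 14 striatal markers tested were higher on day 1 than in normoxia, with Adora2a up by 4.61 and Drd2 by 3.29 log2. Their summed signal, relative to each array's 75th percentile, was 12.4 and 12.6 (normoxia), 53.3 and 52.7 (day 1), 11.7 on both arrays (day 3) and 12.97 and 12.51 (day 7). Of 18 choroid plexus markers 17 were lower on day 1, with changes of -6.43 log2 for Sostdc1 and -6.52 for Ttr, and 18 were lower on day 7. The summed signal of this list was 134 and 145 (normoxia), 6.92 and 7.11 (day 1), 185 and 174 (day 3) and 15.7 and 15.4 (day 7). On day 3 the sum was higher than in normoxia, although 8 of the 18 markers were called lower and 4 higher. All 10 markers of leptomeninges and fibroblasts fell on days 3 and 7 and 9 of them on day 1, with sums of 19.2 and 19.0 (normoxia), 7.49 and 7.45 (day 1), 11.8 on both arrays (day 3) and 6.14 and 6.02 (day 7). The 9 red blood cell markers rose on every day, with sums of 164 and 180 (normoxia), 299 and 290 (day 1), 471 and 444 (day 3) and 563 and 550 (day 7). Hippocampal neuron markers were well above background for 13 to 16 of 16 on each array, with sums of 75.7 and 74.5 (normoxia), 68.0 and 65.4 (day 1), 90.2 and 91.2 (day 3) and 91.3 and 97.1 (day 7). The day 1 rises of Hspa4 and Hsph1 and the day 1 falls of Hsf1 and Hspe1 all coincided with the higher striatal signal. The high Hspa4 arrays of days 1 and 7 coincided with the low choroid plexus signal and lay in columns 3 and 4 of the slide. Exposure group, slide column and choroid plexus signal cannot be told apart for this pattern. The part of tissue composition in the values of the 9 genes was not tested.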

How the data were processed

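Total RNA of 8 hippocampal samples was hybridised to 1-colour Agilent rat arrays, all on 1 slide. Per the file headers, the scanner files were made with Agilent Feature Extraction, version 11.5.1.1. They give a processed intensity per spot (background removed within the array, no scaling between arrays) beside its mean and local background intensity. The deposited values of the whole series are in log2 units whose scaling the authors do not state. After removal of a constant per array, 96.7% to 97.4% of them lay within 0.05 of log2 processed signal. The number of arrays limits the precision.

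Spots of controls and outliers were dropped. Replicate spots of 1 probe were averaged as log2, and arrays were scaled to their 75th percentile (30367 probes). Probes stayed in if at least 0.5 of their spots were well above background on both arrays of 1 or more groups, which left 24678 of 30346 complete probes and 21296 genes, each read from its kept probe with the highest mean. Symbols and coordinates are those of the array annotation (rn4), and listed genes were matched to it through current or older symbols in RefSeq. Tests used lmFit and eBayes of limma 3.58.1 (R 4.3.3), with 1 model of 4 group means over 8 arrays, two-sided, with Benjamini-Hochberg adjustment over all genes, or over all kept probes where so stated. The model had 4 residual degrees of freedom and a prior of 1.22. In simulated day 1 data of 21296 genes it recovered 40% of changes of 0.5 log2 and 80% of changes of 1 log2. Only 100 genes were changed at each size, while 35.5% of all genes were called on day 1 in the real data. The Benjamini-Hochberg cutoff depends on that share, so these recoveries do not describe the real comparisons. Other software was Python 3.11.15 with matplotlib 3.10.9, numpy 2.4.6, pandas 2.3.3, and the R package data.table (version 1.17.8).

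The members and gene lists were chosen with earlier results of these data known. All members were named with every probe; up to 4 genes per list and comparison were taken by smallest p, as were up to 3 per marker list, and likeness named the 3 highest r. Some genes that the rule named are not printed. A few list genes were also given at a day on which they did not rank among those 4. Alternatives were other scalings, normexp with an offset of 50, the authors' values, other filters, other ways to combine probes, an intensity trend, a block for the replicate number, a fit to the compared groups alone and leaving out arrays. The most upstream probe, the most downstream probe and leaving out both day 1 arrays were added after seeing the data, as were the gene lists under other scalings and other choices of probe.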

Additional observations from a re-analysis of the deposited data

Results flagged for a closer look

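Hspa4 and Hsf1 had called changes from normoxia of opposite sign on different days, and the difference between the days was itself called. For Hspa4 the change on day 3 minus that on day 1 was -0.94 log2, and the change on day 7 minus that on day 3 was 0.64. For Hsf1 the change on day 3 minus that on day 1 was 0.47. Each pair of changes shares the normoxia arrays.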

How the results depend on the processing

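Of the members' changes under all alternatives, 882 kept direction and side of the threshold, 57 lost the call, 27 gained one and 51 changed sign. In the counts of genes called, 130 of the alternative values lay within 1.5 times the reported count and 4 did not. Calls between days 7 and 3 numbered 5358 with only the groups compared, and leaving out 1 array at a time gave 4350 to 7669 calls on day 1 against normoxia (4984 without normoxia replicate 2, 4350 and 4382 without day 1 replicates 1 and 2). Of the 9 genes, those called between days 7 and 3 numbered 2 under quantile normalization, 8 under median centring, 2 under cyclic loess, 1 with only the groups compared and 2 to 4 without 1 array (2 without either day 3 array). Those called on day 3 against normoxia numbered 3 to 5 without 1 array, and 3 without normoxia replicate 1 or either day 3 array.

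Median centring moved the median of all genes on day 7 to 0.26 log2, beside -0.03 as reported, and normexp to 0.22. The share of calls that were higher became 66.7% and 67.9% on day 3, beside 48.0%, and 73.1% and 71.5% on day 7, beside 51.5%. Between days 3 and 1 it was 68.9% and 70.8%, beside 55.1%, and between days 7 and 3 77.2% under median centring, beside 57.0%. The replicate number as a block gave 6932, 10290 and 12702 genes called on days 1, 3 and 7 against normoxia, and 4, 4 and 7 of the 9 genes. Deviations of arrays with the same number correlated between -0.15 and 0.05, so no strong shared effect of the number was seen. Whether the samples were paired is not stated and cannot be settled from 2 arrays per group. The block is given for completeness.

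The changes of sign follow as log2 values. With the most upstream probe, Hsp90aa1 gave -0.46 and -1.25 on days 3 and 7 against normoxia, -0.0686 for day 3 minus day 1 and -0.79 for day 7 minus day 3. Hspa8 gave -1.23, -1.90, -1.29 and -0.67 in the same order, and Hspe1 -0.21 on day 7 and -0.28 for day 7 minus day 3. With the most downstream probe, Hsp90aa1 gave -0.22 and -0.13 on days 3 and 7. With the mean of a gene's probes, Hsp90aa1 gave -0.19 and -0.32 on days 3 and 7 and -0.13 for day 7 minus day 3. Hspa8 gave -0.53 and -0.81, -0.54 for day 3 minus day 1 and -0.28 for day 7 minus day 3, and Hspe1 -0.0012 on day 7 and -0.0682 for day 7 minus day 3. In these settings the sign follows from the probe read.

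Under quantile normalization, Hsp90aa1 gave -0.22 and -0.0715 on days 3 and 7 and -0.13 for day 3 minus day 1. Hspa8 gave -0.0034 on day 1 and -0.0094 for day 7 minus day 3, Hspd1 -0.0193 for day 7 minus day 3, and Hspe1 -0.091 and -0.0844 on days 3 and 7. Under cyclic loess, Hsp90aa1 gave -0.16 and -0.0358 on days 3 and 7 and -0.0916 for day 3 minus day 1. Hspa8 gave -0.0391 on day 7, -0.0141 for day 3 minus day 1 and -0.0634 for day 7 minus day 3, Hspd1 -0.0541 for day 7 minus day 3, and Hspe1 -0.11 and -0.14 on days 3 and 7 and -0.0248 for day 7 minus day 3. Under median centring, Dnajb1 gave 0.20 on day 7, Hspd1 0.0357 and 0.28 on days 3 and 7 and 0.0675 for day 3 minus day 1, and Hsph1 0.0162 and 0.0574 on days 3 and 7 and 0.0412 for day 7 minus day 3. Under normexp, Dnajb1 gave -0.0071 for day 7 minus day 3 and Hspa8 -0.0354 on day 1. Leaving out 1 array turned 3 uncalled values, whose ranges were -0.0857 to 0.0245 for Dnajb1 on day 1, -0.0248 to 0.0768 for Hspa8 on day 1 and -0.1034 to 0.0771 for Hspd1 on day 7. The cause of the changes under other scalings was not tested.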
